A study of Arabidopsis thaliana with 24 samples.

Results

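The response of wild-type (WT) Arabidopsis thaliana rosettes to strong light was taken from the 8 of 24 arrays that carry WT plants under high light (HL) or control light (C), with 4 arrays in each group. These were the arrays that the labels give as WT after 2 h of high light or of control conditions, and no measured value entered their choice. All 27826 transcripts of the array table were compared. The HL plants had been moved to 1000 µmol photons per square metre and second for 2 h, whereas the C plants stayed at the 120 µmol in which they had been raised. All plants were of the ecotype Col-0, without any transgene or mutation, were 4.5 weeks old and had grown in short days at a single air temperature that was also kept during the HL treatment. Each of the 4 biological replicates per group was hybridized to an array of its own. The methods speak of rosettes of individual plants that were divided among several omics analyses. The other 16 arrays hold WT plants in darkness (D) and plants of the T-DNA knockout gnat2, which lacks an acetyltransferase of the plastid, and they enter here only through the shared estimate of the spread and where they are named.

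Light beyond what photosynthesis can use over-excites the photosystems and yields reactive oxygen species and heat. Leaves respond within minutes to hours by dissipating energy in the antenna, by detoxifying oxygen species, by making screening pigments such as flavonoids, and by folding or degrading damaged proteins. Blue-light, red-light and UV-B receptors, sugars and signals from the plastid all feed into the nuclear transcripts that change.

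Values are log2 signals after background correction and quantile normalization by the authors, so a difference of 1 is a 2-fold change. The median of every array was 2.35, and signals below it were not shown to stand above the background, so the size of a change that starts or ends there is uncertain. Signals of different transcripts come from different probes and are not set against each other. "Rose" and "fell" are used of transcripts with an adjusted p under 0.05 in limma, and "called" of those that also changed over 2-fold. Under this rule 6.52% of all transcripts were called, 3.41% as higher and 3.11% as lower. Without the limit on the fold change, 11.9% rose and 11.5% fell, and the median log2 change over all transcripts was -0.01.

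Arrays of one group correlated across transcripts with a mean r of 0.982 to 0.984, and arrays of different groups with 0.952 to 0.956. Transcripts are not independent, so these carry no p. GNAT2 (AT1G32070), the gene knocked out in the mutant and named NSI by RefSeq, lay between 5.70 and 5.84 on the 4 HL arrays and between 5.61 and 6.30 on the 4 C arrays, which overlap. The 3 mesophyll markers RBCS1A, CA1 and RCA did not pass the test, with log2 changes from 0.00 to 0.11. RCA passed in an unmoderated test (adjusted p = 0.022) and after cyclic loess (adjusted p = 0.0189). RBCS1A stood at 12.723 on all 8 arrays, with an SD of 0.0 in both groups, and also on the gnat2 HL and C arrays. A signal fixed at 1 value could not show a change. The 9 markers of roots, flowers and seeds all stayed below the array median in both groups. Of 3 epidermal markers the wax gene CER1 rose by 1.32 and ATML1, an epidermal transcription factor, fell by 0.36 (adjusted p = 0.0485, which missed the threshold in 11 alternative fits, 7 of them without 1 array, at up to 0.18). Of 3 vascular markers the phloem sucrose transporter gene SUC2 fell by 0.74, and of 3 guard cell markers 0 passed. Their part in other results was not tested. In whole rosettes, fewer cells of a type and less RNA per cell cannot be told apart.

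Most of the responses were moderate. Of the called transcripts, 138 were over 4-fold higher and 185 over 4-fold lower, 36 and 42 passed 8-fold, and 11 and 10 passed 16-fold. Ordered by mean signal, the weakest 6958 transcripts (means up to 1.35) held 0 calls, the next 6955 held 52 higher and 34 lower ones, the next 6956 held 420 and 412, and the strongest 6957 held 478 and 419. In 1770 of the 1815 called transcripts the 4 HL values did not overlap with the 4 C values, beside 21.6% of all transcripts. For 163 of the 950 higher calls the C mean, and for 128 of the 865 lower calls the HL mean, was below the array median.

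**Figure D1:**
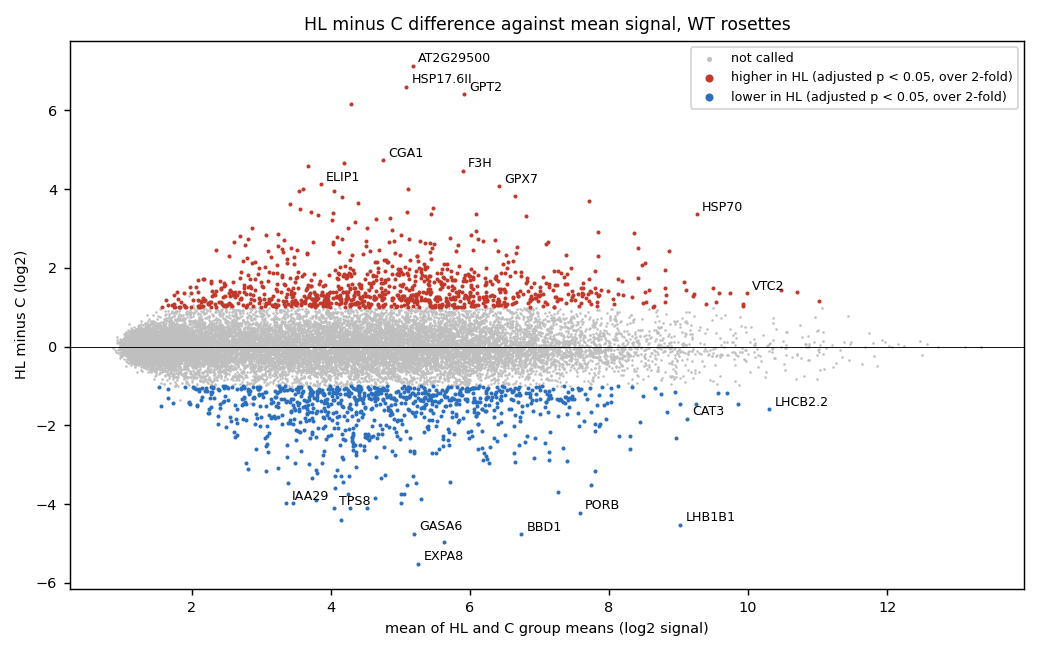
HL minus C difference (log2, vertical axis) against the mean of both groups (log2 signal, horizontal axis) for 27826 transcripts, with 950 higher (red) and 865 lower (blue) calls and all others in grey. The largest changes lie at middle signal strength, and the strongest transcripts such as VTC2 and LHCB2.2 changed by less than 2 log2 units.

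Transcripts of molecular chaperones were among the largest rises. Small heat shock proteins bind unfolding proteins and hold them soluble, and HSP70, HSP90 and HSP101 refold or disaggregate them. Of the 6 small heat shock proteins whose name was found in RefSeq, 3 rose and 0 fell, beside 11.9% and 11.5% of all transcripts, and the 3 rises were all over 2-fold, beside 3.41%. A further 10 loci written down for this family carry no such name in RefSeq and stayed outside the list. Of these, 6 rose, all over 2-fold, and 1 fell, and the median log2 change over all 16 was 1.56, against 2.94 over the 6. The cytosolic HSP17.6II (AT5G12020) read 8.83, 7.8, 8.56 and 8.33 on the HL arrays, against 1.91, 2.01, 1.95 and 1.27 on the C arrays. The lowest HL value stood 5.79 units above the highest C value, and the log2 change was 6.6 ± 0.21 (SE), adjusted p = 3.45e-17. The mitochondrial HSP23.6-MITO (AT4G25200) read 7.35, 4.78, 8.2 and 5.76 on the HL arrays, against 1.58, 1.79, 2.2 and 1.9 on the C arrays. HSP17.4 (AT3G46230) read 6.02, 5.55, 6.53 and 5.76 on the HL arrays, against 1.01, 1.15, 1.58 and 1.8 on the C arrays. HL and C did not overlap in either, although HSP23.6-MITO varied widely among the HL arrays, and their log2 changes were 4.65, adjusted p = 9.55e-08, and 4.58, adjusted p = 7.65e-15. All 3 had C means below the array median. The plastid HSP21 was not called, at 1.3, adjusted p = 0.148, with overlapping groups. It passed only without HL replicate 2 (adjusted p = 0.0455), and without HL replicate 3 its change was 0.21. AT2G29500, one of the 10 loci without a gene name in RefSeq, showed the largest rise of all transcripts, with 9.27, 8.38, 9.15 and 8.2 on the HL arrays, against 1.63, 1.69, 2.01 and 1.12 on the C arrays. Its change was 7.14 ± 0.26 (SE), adjusted p = 3.89e-16, and AT1G53540, another of the 10, changed by 6.15, adjusted p = 1.36e-10.

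Among 26 larger chaperones and co-chaperones, 19 rose and 0 fell, 13 of them over 2-fold, and the median log2 change was 1.19. HSP90.1 (AT5G52640), a cytosolic HSP90, read 7.51, 6.41, 7.99 and 7.02 on the HL arrays, against 3.45, 3.91, 4.04 and 3.43 on the C arrays, a change of 3.53 ± 0.29 (SE), adjusted p = 9.88e-10. HSP70 (AT3G12580) read 11.10, 10.58, 11.23 and 10.86 on the HL arrays, against 7.6, 7.67, 7.29 and 7.75 on the C arrays, a change of 3.36 ± 0.17 (SE), adjusted p = 2.03e-13. On each HL array both stood above the whole C range, by 2.37 units or more for HSP90.1 and 2.83 for HSP70. The immunophilin-type co-chaperone gene ROF2 (AT5G48570) followed with 3.31, the disaggregase HSP101 with 2.41 and the HSP70-HSP90 adaptor Hop3 with 1.68 (adjusted p = 1.57e-10, 4.00e-04 and 6.10e-05). Without HL replicate 3 the change of HSP101 was 1.6. Cytosolic members of the HSP70 and HSP90 families have closely similar sequences, and signal shared between them was not tested.

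Heat shock factors, the transcription factors upstream of chaperone genes, moved less. Of 22 listed genes 5 rose (22.7%) and 1 fell (4.55%), beside 11.9% and 11.5% of all transcripts. The median log2 change was -0.02. HSF4 (AT4G36990, also known as HSFB1) read 6.38, 5.83, 5.75 and 5.6 under HL, against 4.1, 4.13, 2.76 and 3.98 under C, a change of 2.15, adjusted p = 5.03e-08. HSFA2 (AT2G26150), an amplifier of the heat response, read 2.74, 2.72, 4.05 and 2.46 under HL, against 1.44, 1.78, 1.29 and 1.84 under C, a change of 1.41, adjusted p = 4.48e-05, from a C mean below the array median. The coactivator MBF1C rose by 1.37 (adjusted p = 6.52e-05).

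**Figure D2:**
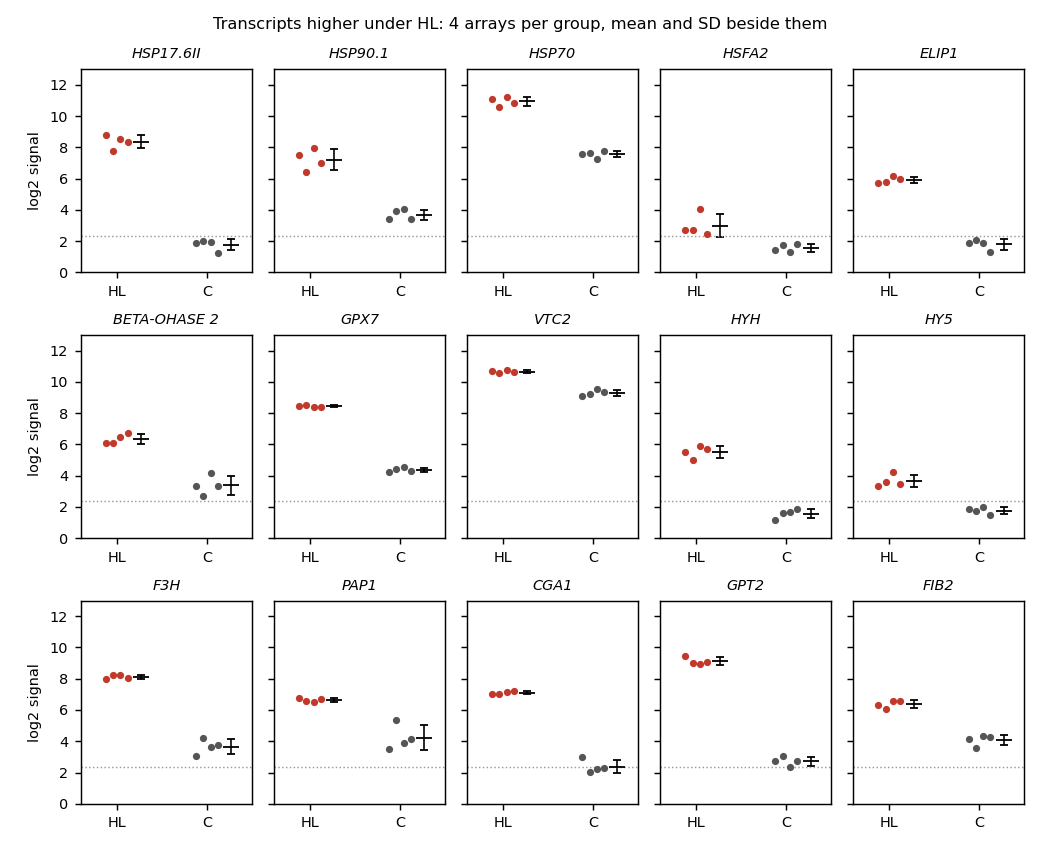
Log2 signal (vertical axis) of 15 transcripts that rose, on the 4 HL arrays (red, left) and the 4 C arrays (grey, right) of WT, with the mean and SD beside the points and the array median of 2.35 dotted. In all 15 panels the 4 HL values lie above the 4 C values, and for HSP17.6II, HSFA2, ELIP1, HYH and HY5 the C values lie below the array median.

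Of 9 thylakoid proteins that resemble the antenna and serve in stress, 3 rose (33.3%) and 1 fell (11.1%). Among all transcripts 11.9% rose and 11.5% fell. ELIP1 (AT3G22840) and ELIP2 (AT4G14690) encode early light-inducible proteins, relatives of the antenna that bind pigments under stress. ELIP1 read 5.73, 5.77, 6.17 and 6.0 on the HL arrays, against 1.91, 2.06, 1.89 and 1.31 on the C arrays, a change of 4.13 ± 0.15 (SE), adjusted p = 4.60e-16. ELIP2 read 2.9, 5.03, 5.24 and 4.38 on the HL arrays, against 1.17, 1.13, 1.54 and 1.62 on the C arrays, a change of 3.02 ± 0.33 (SE), adjusted p = 8.99e-08. Both were below the array median on all C arrays and above it on all HL arrays. NPQ4, which encodes the PsbS protein of energy-dependent quenching, rose by 0.79 ± 0.13 (SE), adjusted p = 3.48e-05. LIL3:2, which holds chlorophyll synthesis enzymes at the membrane, was the member that fell, by 0.58.

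Carotenoid enzymes moved both ways. The 2 β-carotene hydroxylases, which make the zeaxanthin precursor pool of the xanthophyll cycle, both rose. BETA-OHASE 2 (AT5G52570) read 6.08, 6.11, 6.49 and 6.75 under HL, against 3.31, 2.72, 4.2 and 3.34 under C, a change of 2.97, adjusted p = 6.64e-10. BETA-OHASE 1 (AT4G25700) read 5.25, 5.41, 5.73 and 5.52 under HL, against 2.73, 2.3, 3.03 and 2.74 under C, a change of 2.77, adjusted p = 4.90e-13. The HL values of both genes stood above all their C values. NPQ1 (AT1G08550), the violaxanthin de-epoxidase that forms zeaxanthin in strong light, read 5.94, 6.24, 5.91 and 6.06 under HL, against 7.1, 7.46, 7.17 and 7.38 under C, and fell by 1.24 (adjusted p = 1.81e-09). ABA4, needed for neoxanthin, fell by 1.01. Over the 14 genes, 3 rose (21.4%) and 3 fell (21.4%), beside 11.9% and 11.5% of all transcripts. Their median log2 change was 0.16.

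Enzymes against oxygen species moved in both directions, with 7 of 25 rising (28.0%) and 5 falling (20.0%), beside 11.9% and 11.5% of all transcripts. GPX7 (AT4G31870), a plastid glutathione peroxidase, read 8.45, 8.55, 8.41 and 8.39 on the HL arrays, against 4.21, 4.42, 4.54 and 4.32 on the C arrays. These groups were tight and 3.85 units apart, and the change was 4.08 ± 0.25 (SE), adjusted p = 5.94e-12. The cytosolic ascorbate peroxidase APX1 rose by 1.71 and the glutathione reductase GR1 by 1.34 (adjusted p = 2.62e-08 and 1.94e-08). The catalases CAT3 (AT1G20620) and CAT1 (AT1G20630) fell, by 1.83 and 1.6 (adjusted p = 7.65e-09 and 3.72e-08). CAT3 read 8.5, 8.42, 7.97 and 7.92 under HL, against 10.25, 10.31, 9.89 and 9.69 under C. Of 6 ascorbate synthesis genes 3 rose (50.0%) and 1 fell (16.7%). VTC2 (AT4G26850), the GDP-L-galactose phosphorylase that commits carbon to ascorbate, read 10.69, 10.57, 10.73 and 10.65 under HL, against 9.09, 9.24, 9.57 and 9.32 under C, a change of 1.36, adjusted p = 1.75e-08. Its homologue VTC5 and the epimerase gene GME rose by 1.18 and 1.32. VTC4, a phosphatase of the same route, fell by 1.7 (adjusted p = 7.90e-09).

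All 4 genes of vitamin B6 synthesis, a quencher of singlet oxygen, rose, and 3 did so over 2-fold. The synthase subunit genes PDX1.1 and RSR4 (PDX1.3) changed by 2.01 and 1.73, and the glutaminase gene PDX2 by 1.85 (adjusted p = 5.37e-12, 9.25e-11 and 2.63e-11). The noncatalytic PDX1.2 changed by 0.55 (adjusted p = 0.00948), which missed the threshold in a fit of the 8 arrays alone (adjusted p = 0.0688) and without HL replicate 3 (adjusted p = 0.0541). Of 9 genes of alternative respiration 4 rose, led by the alternative oxidase AOX1A with 6.27 ± 0.33 under HL, against 4.28 ± 0.61 under C (SD, n = 4 each) and a change of 1.99, adjusted p = 4.60e-04. FER1 (AT5G01600), an iron-storing plastid ferritin named here after its values were seen, rose by 3.7 ± 0.45 (SE), adjusted p = 6.30e-07, and by 4.32 without C replicate 2. Among 10 genes of photosystem II repair, the thylakoid protease genes FTSH8, FTSH1 and VAR1 (FTSH5) rose by 1.86, 1.4 and 1.07. TLP18.3 and the protease gene DEG2 fell, by 0.73 and 0.66.

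Flavonoids absorb UV and blue light in the epidermis. Of 20 enzymes of the route from phenylalanine, 14 rose and 0 fell, 10 of them over 2-fold, and the median log2 change was 1.09. C4H, cinnamate 4-hydroxylase at the entry to the route, read 7.69, 7.69, 7.75 and 7.7 under HL, against 5.0, 5.53, 4.84 and 4.65 under C. TT5, the chalcone isomerase, read 7.38, 7.48, 7.7 and 7.42 under HL, against 4.33, 4.82, 4.95 and 4.9 under C. Their changes were 2.71 and 2.74, and those of the chalcone synthase TT4, the isomerase-like CHIL and the flavonol synthase FLS1 were 2.42, 2.73 and 2.48. F3H (AT3G51240), flavanone 3-hydroxylase, read 7.97, 8.25, 8.24 and 8.06 on the HL arrays, against 3.04, 4.19, 3.65 and 3.77 on the C arrays, the largest change of the list at 4.47 ± 0.24 (SE), adjusted p = 4.01e-13. A noncoding RNA gene, AT3G51238, overlaps it in the RefSeq annotation, and their signals were not separated here. The late anthocyanin genes DFR and LDOX did not pass the test, at 0.96, adjusted p = 0.196, and 0.65, adjusted p = 0.149. Without HL replicate 3 both passed (adjusted p = 0.0249 and 0.0471).

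Among 17 regulators of this route 5 rose (29.4%) and 2 fell (11.8%), beside 11.9% and 11.5% of all transcripts. PAP1 (AT1G56650), the MYB activator of anthocyanin genes, read 6.77, 6.57, 6.48 and 6.7 under HL, against 3.51, 5.37, 3.86 and 4.15 under C, a change of 2.41, adjusted p = 1.96e-08. MYBL2 (AT1G71030), a repressor of the same genes, read 3.51, 3.63, 2.95 and 4.06 under HL, against 7.16, 6.68, 6.79 and 6.71 under C, a change of -3.3, adjusted p = 1.87e-13. Neither pair of groups overlapped. The nitrogen-linked repressor LBD39 also rose, by 1.67, and the bHLH gene GL3 and the flavonol activator MYB111 rose by 1.01 and 0.80 from C means below the array median.

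HY5 and HYH are bZIP factors that act after phytochromes, cryptochromes and the UV-B receptor. HYH (AT3G17609) read 5.54, 4.98, 5.9 and 5.69 on the HL arrays, against 1.17, 1.59, 1.65 and 1.85 on the C arrays, a change of 3.96 ± 0.20 (SE), adjusted p = 1.55e-13. HY5 (AT5G11260) read 3.35, 3.6, 4.24 and 3.43 on the HL arrays, against 1.85, 1.73, 2.0 and 1.49 on the C arrays, a change of 1.89 ± 0.15 (SE), adjusted p = 7.80e-10. All C values of both genes were under the array median and all HL values above it. Of the 11 genes in this group 8 rose and 0 fell, among them the UV-B feedback gene RUP2 at 1.51, the DNA photolyase PHR1 at 1.22 and SPA3, a partner of the ubiquitin ligase COP1, at 0.82. DDB2, a DNA damage recognition gene named after its values were seen, rose by 3.0.

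Photoreceptor transcripts themselves fell in 6 of 13 cases and rose in 2. CRY1 (AT4G08920) read 6.07, 6.25, 5.68 and 6.29 under HL, against 8.19, 8.13, 8.26 and 8.33 under C, and fell by 2.16. CRY2 fell by 1.89, the far-red receptor gene PHYA by 1.43 and the phototropin gene PHOT1 by 1.34 (adjusted p from 4.26e-13 to 1.60e-07). HL and C groups were separate for each of these 4. PHYE rose by 1.16 and PHYB by 0.94 (adjusted p = 4.23e-08 and 8.88e-07).

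B-box zinc finger factors, which work beside HY5, changed in both directions. Of 18 genes 7 rose (38.9%) and 4 fell (22.2%), beside 11.9% and 11.5% of all transcripts. BBX31 (AT3G21890) read 5.8, 5.21, 5.95 and 5.94 under HL, against 1.67, 2.39, 2.44 and 2.81 under C, a change of 3.4, adjusted p = 1.06e-12. BBX32 changed by 2.56. BBX14 (AT1G68520) read 2.48, 2.08, 2.68 and 2.79 under HL, against 5.83, 5.7, 5.95 and 5.63 under C, a change of -3.27, adjusted p = 7.59e-15. BBX15 and BBX21 fell by 1.53 and 1.43. The phytochrome-interacting factors (PIFs) drive elongation in shade and are degraded in light. Of 17 PIF genes and shade markers 0 rose and 8 fell, with a median of -0.59. PIF4 (AT2G43010) read 5.46, 5.16, 5.42 and 4.72 under HL, against 7.68, 7.43, 7.6 and 7.66 under C, a change of -2.4, adjusted p = 5.94e-12. PIL5 (PIF1) and PIL6 (PIF5) fell by 2.0 and 1.43. IAA29 (AT4G32280), a shade-induced auxin response gene, read 1.73, 1.18, 1.34 and 1.21 on the HL arrays, against 6.2, 4.84, 5.52 and 4.83 on the C arrays. It was under the array median on each HL array and fell by 3.98 (adjusted p = 2.44e-10). HFR1, a PIF inhibitor, fell by 1.64, and its HL values spread between 1.88 and 3.55.

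Plastid regulators were led by CGA1 (AT4G26150), a GATA factor that promotes chloroplast development, which read 7.02, 7.04, 7.17 and 7.23 on the HL arrays, against 2.97, 2.04, 2.25 and 2.27 on the C arrays. The groups lay 4.05 units apart and the change was 4.73 ± 0.18 (SE), adjusted p = 8.65e-16. SIGE (AT5G24120, SIG5), the sigma factor that directs plastid transcription to stress-responsive promoters, read 7.88, 7.71, 7.88 and 7.92 under HL, against 4.88, 5.54, 5.66 and 5.82 under C, a change of 2.37, adjusted p = 5.34e-08. GLK2, GPRI1 (GLK1) and SIGA (SIG1), activators of photosynthesis genes, fell by 1.26, 0.62 and 0.58. In the clock list of 18, 3 rose (16.7%) and 4 fell (22.2%), beside 11.9% and 11.5% of all transcripts, with a median of 0.07. The morning genes RVE8 and CCA1 rose by 1.9 and 1.63 (adjusted p = 1.40e-09 and 1.83e-07).

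Antenna transcripts fell in 16 of 21 cases and rose in 2. LHB1B1 (AT2G34430), of the major antenna of photosystem II, read 6.56, 6.72, 6.97 and 6.78 under HL, against 11.21, 11.28, 11.40 and 11.23 under C. Its close relative LHB1B2 (AT2G34420) read 9.03, 8.93, 9.19 and 9.28 under HL, against 10.32, 10.30, 10.28 and 10.25 under C, a change of -1.18 against -4.53 for LHB1B1. CAB3 and CAB1 fell by 1.46 and 0.75 (adjusted p = 2.31e-08 and 3.68e-06). CAB2 did not pass, at -0.24, and its means of 1.15 under HL and 1.39 under C were both below the array median. The CAB1, CAB2 and CAB3 sequences are near-identical and their signals are uncertain. LHCB2.2 (AT2G05070) read 9.25, 9.42, 9.73 and 9.61 under HL, against 11.23, 11.01, 11.14 and 11.01 under C, and LHCB2.3 and LHCB4.2 fell by 2.44 and 2.87. Both rises were of photosystem II antenna genes. LHCB7 (AT1G76570) read 6.31, 6.06, 6.1 and 6.15 under HL, against 4.25, 2.89, 3.6 and 4.58 under C, a change of 2.33 ± 0.23 (SE), adjusted p = 1.86e-08. LHCB4.3 changed by 1.0, but its means of 2.32 under HL and 1.32 under C were both below the array median. Of the photosystem I antenna genes listed, Lhca6 had the largest fall, at -0.57.

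Chlorophyll synthesis genes fell in 14 of 26 cases and rose in 0, with a median of -0.40. PORB (AT4G27440), a light-dependent protochlorophyllide reductase, read 5.37, 5.6, 5.66 and 5.23 under HL, against 9.75, 9.64, 9.83 and 9.54 under C, without overlap. CH1 (AT1G44446), the oxygenase that makes chlorophyll b, read 7.0, 7.08, 7.02 and 7.02 under HL, against 8.8, 8.78, 8.93 and 8.97 under C, a change of -1.84, adjusted p = 1.21e-11. The porphyrin genes HEMC and HEME1 and the methyltransferase gene CHLM fell by 1.04, 0.95 and 1.03.

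**Figure D3:**
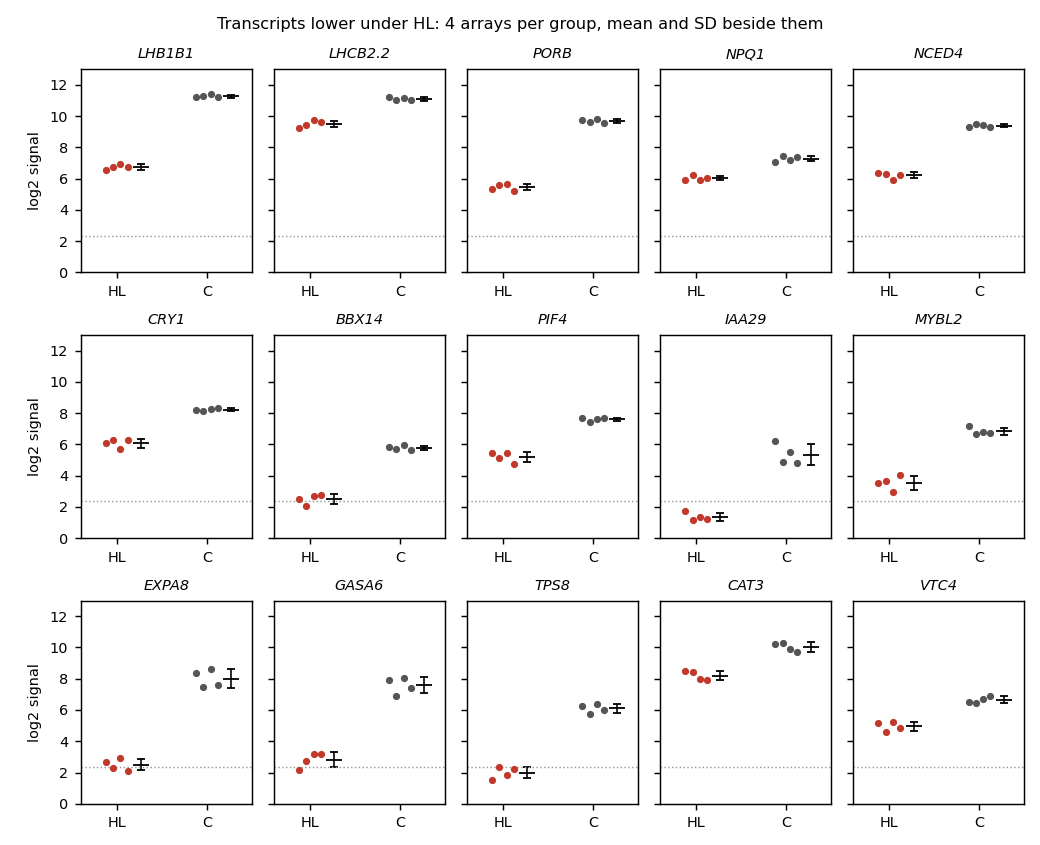
Log2 signal (vertical axis) of 15 transcripts that fell, on the 4 HL arrays (red, left) and the 4 C arrays (grey, right) of WT, with the mean and SD beside the points and the array median of 2.35 dotted. In every panel the 4 HL values lie below the 4 C values, and all 4 HL values of IAA29 lie under the array median.

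Of 19 Calvin-Benson cycle genes 3 rose (15.8%) and 2 fell (10.5%), beside 11.9% and 11.5% of all transcripts. The changes over 2-fold numbered 0, and the extremes were the aldolase gene FBA1 at 0.72, adjusted p = 2.78e-05, and the phosphoribulokinase gene PRK at -0.51, adjusted p = 0.00406. Transport and starch genes included one of the largest rises of all. GPT2 (AT1G61800), which exchanges glucose 6-phosphate across the plastid envelope, read 9.47, 9.03, 8.93 and 9.07 on the HL arrays, against 2.74, 3.03, 2.36 and 2.73 on the C arrays, a change of 6.41 ± 0.21 (SE), adjusted p = 3.45e-17. GBSS1, the granule-bound starch synthase, averaged 9.8 ± 0.15 under HL, against 6.92 ± 0.14 under C (SD, n = 4 each), a change of 2.89, adjusted p = 1.03e-12. The β-amylase genes BAM5 and CT-BMY (BAM3) rose by 2.43 and 1.72, and DPE1, which recycles maltotriose, fell by 1.42. SAG29 (AT5G13170), a sucrose exporter also called SWEET15 and named after its values were seen, rose by 3.49. Over the 26 genes 6 rose (23.1%) and 6 fell (23.1%).

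Transcripts that mark sugar starvation fell in 10 of 16 cases, with a median of -0.74, and 2 rose. TPS8 (AT1G70290), of the trehalose phosphate synthase family, read 1.55, 2.37, 1.83 and 2.24 under HL, against 6.28, 5.75, 6.37 and 6.0 under C, a change of -4.11, adjusted p = 7.43e-15. SEN1 (AT4G35770) read 2.45, 2.56, 2.2 and 2.54 under HL, against 4.95, 4.37, 3.88 and 4.33 under C, a change of -1.94, adjusted p = 3.28e-07. TPS11 and DIN10 fell by 1.56 and 1.46. The HL means of TPS8, TPS11 and DIN10 were below the array median. DIN9, a phosphomannose isomerase gene, moved the other way, at 2.12, adjusted p = 7.75e-09.

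Some of the named genes changed in steps from darkness to high light. Those given here were picked by hand, and the share of all transcripts with such an order was not counted. The D arrays of WT, given here as values only, share the C arrays with the HL comparison. DIN10 averaged 10.25 under D, 3.47 under C and 2.01 under HL, and SEN1 averaged 10.62, 4.38 and 2.44 in the same order. TPS8, BBX14, MYBL2 and PHYA also stood highest under D and lowest under HL, with no overlap between any of the 3 light groups. VTC2 averaged 6.25 under D, 9.30 under C and 10.66 under HL, and BAM5 averaged 3.77, 7.65 and 10.08. PAP1 had the same order, with 1.95, 4.22 and 6.63. CGA1 broke the order, at 5.50 under D, 2.38 under C and 7.11 under HL, so that C was the lowest of the 3.

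**Figure D4:**
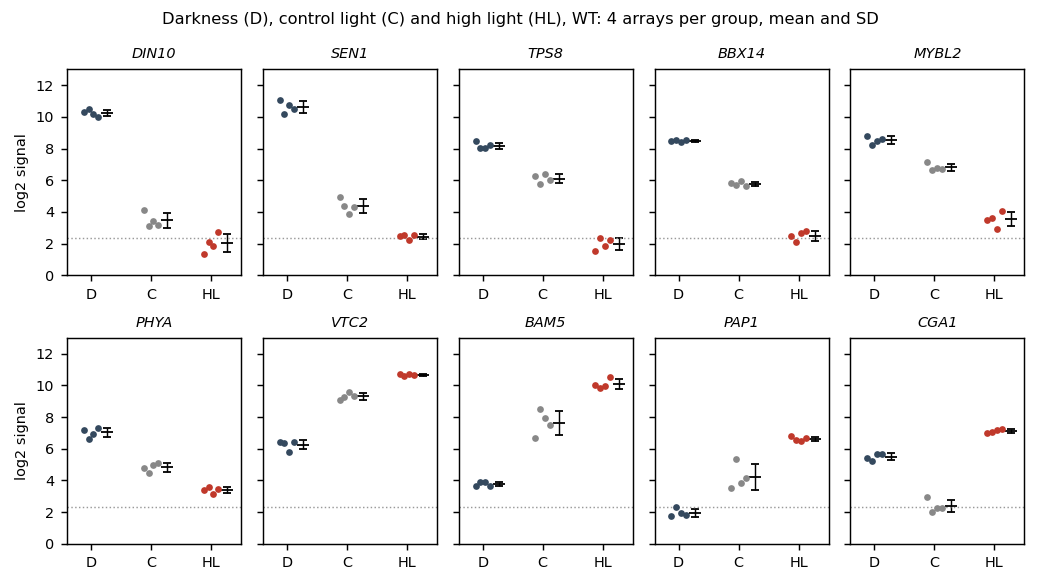
Log2 signal (vertical axis) of 10 transcripts, picked by hand, on the 4 D, 4 C and 4 HL arrays of WT, in order of rising light, with the mean and SD beside the points and the array median of 2.35 dotted. DIN10, SEN1, TPS8, BBX14, MYBL2 and PHYA step down with light, VTC2, BAM5 and PAP1 step up, and CGA1 is lowest under C.

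EXPA8 (AT2G40610), an α-expansin that loosens cell walls, read 2.68, 2.29, 2.92 and 2.11 on the HL arrays, against 8.39, 7.45, 8.62 and 7.58 on the C arrays, a change of -5.51 ± 0.28 (SE), adjusted p = 1.91e-13. Of all 19 α-expansins 4 rose (21.1%) and 5 fell (26.3%), beside 11.9% and 11.5% of all transcripts. EXPA10 and EXPA16 were higher by 2.06 and 1.15. EXPA1 fell by 1.12. Among 23 xyloglucan-modifying XTH genes 1 rose (4.35%) and 7 fell (30.4%), XTH6 by 1.34. GASA6 (AT1G74670), a gibberellin-regulated gene, read 2.16, 2.75, 3.17 and 3.18 on the HL arrays, against 7.93, 6.93, 8.04 and 7.4 on the C arrays, a change of -4.76 ± 0.27 (SE), adjusted p = 9.20e-13. HBI1 and TUB5, a growth-promoting bHLH factor and a β-tubulin named after their values were seen, changed by -3.88 and -2.76. Of the 23 tubulins 0 rose and 7 fell (30.4%), 3 of them over 2-fold. AUX/IAA genes, early targets and repressors of auxin signalling, fell in 7 of 24 cases (29.2%) and rose in 1 (4.17%). IAA1 and IAA5 fell by 1.52 and 1.03, and AXR3 (IAA17) rose by 1.01. The 80 auxin-induced SAUR genes, of which 25 had a group mean above the array median, numbered 8 rises and 14 falls, with 1 and 8 over 2-fold.

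Of 8 DNA replication genes, 0 passed the limma test and 0 had an unadjusted p under 0.05, with a median log2 change of 0.22. All 15 nucleolar assembly genes rose and 13 did so over 2-fold, with a median of 1.51. FIB2 (AT4G25630), the fibrillarin that methylates ribosomal RNA, read 6.32, 6.09, 6.59 and 6.56 on the HL arrays, against 4.14, 3.58, 4.31 and 4.3 on the C arrays, a change of 2.31 ± 0.21 (SE), adjusted p = 4.04e-09. The pumilio-type gene PUM24, the PESCADILLO gene AT5G14520, the pseudouridine synthase gene NAP57 and NOP56 rose by 1.98, 1.9, 1.77 and 1.77. Of 67 genes named as ribosomal proteins by RefSeq, 31 rose and 2 fell, with a median of 0.44, and 4 passed 2-fold. Of 68 small nucleolar RNAs 14 rose and 0 fell.

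Hormone genes moved in both directions. For abscisic acid, 8 of 17 genes rose (47.1%) and 2 fell (11.8%), beside 11.9% and 11.5% of all transcripts. NCED4 (AT4G19170), now known as the carotenoid cleavage dioxygenase CCD4, read 6.36, 6.33, 5.95 and 6.22 under HL, against 9.3, 9.47, 9.44 and 9.31 under C, a change of -3.17, adjusted p = 8.22e-15. The catabolic hydroxylase genes CYP707A4 and CYP707A2 rose by 1.9 and 1.68, and the responsive phosphatase gene HAI1 and LTI78 (RD29A) by 1.9 and 1.24. In the jasmonate list, 11 of 24 rose (45.8%) and 4 fell (16.7%). The repressor genes JAZ5 and TIFY7 (JAZ9) rose by 2.45 and 1.49, VSP1 and the lipoxygenase gene LOX4 by 1.58 and 1.32, and the cyclase gene AOC1 fell by 1.72.

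The rapid stress factors of the AP2/ERF, ZAT and WRKY families gave 2 rises (9.52%) and 0 falls among 21. Over all transcripts 11.9% rose and 11.5% fell. STZ (ZAT10) read 8.09, 7.41, 5.24 and 3.62 under HL, against 5.51, 4.74, 2.45 and 2.23 under C. Its mean was 5.12-fold higher under HL, but the groups overlapped and the adjusted p was 0.105, or 0.0292 without HL replicate 4. The log2 change of 2.36 was between 1.69 without HL replicate 1 and 3.18 without HL replicate 4. Arrays 1 and 2 stood above arrays 3 and 4 in both groups, HL and C. The fit behind the count of 2 rises has no term for this split, which therefore adds to the spread in the test of STZ. With the replicate number as a block, described in the last section, STZ passed. RRTF1 read 3.85, 3.56, 1.29 and 1.26 under HL, against 1.02, 1.46, 0.71 and 1.23 under C, with an adjusted p of 0.0271 and overlapping groups. It did not pass in 7 of the alternative fits, among them those without HL replicate 1 or 2 or C replicate 1 or 3, with adjusted p up to 0.144. Over all 72 WRKY genes, 2 rose (2.78%) and 6 fell (8.33%). Of 97 NAC genes 14 rose (14.4%) and 6 fell (6.19%), and of 129 MYB genes 13 rose (10.1%) and 3 fell (2.33%). The strongest MYB rise was MYB13 at 3.62, named after its values were seen.

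Glucosinolate genes showed 1 rise (7.14%) and 2 falls (14.3%) among 14, beside 11.9% and 11.5% of all transcripts. Of 6 galactinol and raffinose genes 2 rose, led by the galactinol synthase gene GolS1 at 1.67, adjusted p = 4.79e-05.

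**Figure D5:**
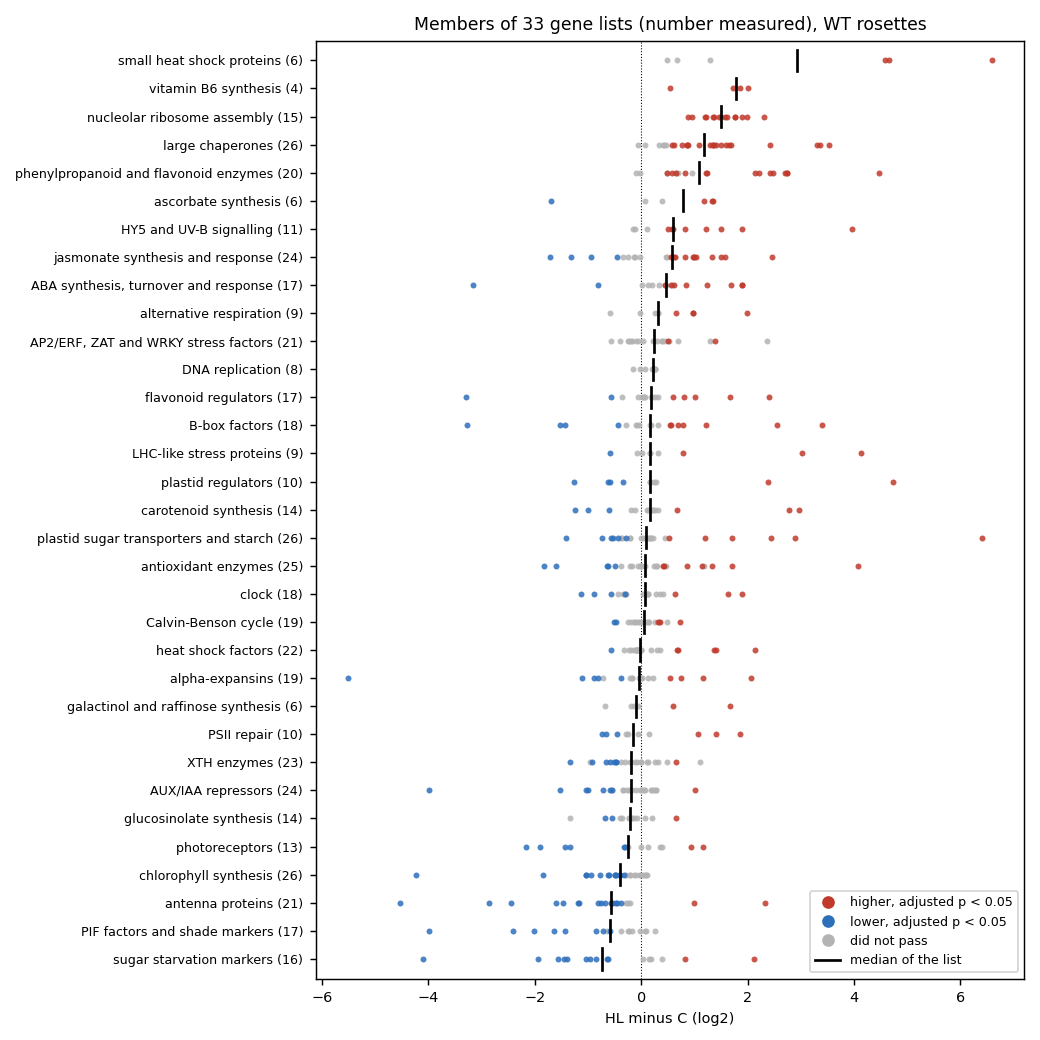
HL minus C difference (log2, horizontal axis) of each member of 33 gene lists (rows, with the number measured), in red where it rose, blue where it fell and grey where it did not pass, with the list median as a black bar and the median of all transcripts dotted. Small heat shock proteins have the highest median of the lists as kept, 2.94. When the 10 loci without a RefSeq name are added it is 1.56, below the 1.79 of vitamin B6 synthesis. Sugar starvation markers have the lowest median, -0.74.

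Among the strongest signals that rose over 2-fold, COR15A, a cold-regulated chloroplast protein, averaged 11.61 ± 0.13 under HL, against 10.44 ± 0.17 under C (SD, n = 4 each). FIB (AT4G04020), a plastoglobule protein, averaged 11.20 ± 0.08 under HL, against 9.75 ± 0.21 under C, a change of 1.45, adjusted p = 9.99e-10. MS2 and SAHH2, a methionine synthase and a homocysteine-forming hydrolase of the methyl cycle, rose by 1.39 and 1.07, and MIPS1, the first enzyme of myo-inositol synthesis, rose by 1.03. LTP3, a lipid transfer protein named after its values were seen, rose by 3.81. Of called genes with "transcription factor" in their RefSeq name, 8 were higher and 0 lower. Besides those above they were GBF3 at 1.45, GATA17 at 1.17 and IMB1 at 1.07. The phrase is absent from the RefSeq names of PIF4, BBX14, MYBL2 and HBI1, which were called lower. The split is therefore not one of all transcription factors. Over all transcripts 3.41% were called higher and 3.11% lower.

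Large falls outside the lists were those of BBD1 (AT1G75380), a nuclease of basal defence, at -4.76, of MEE14 at -4.4, of OFP16, an ovate family protein, at -4.09, and of the unnamed AT5G16030 and AT5G19190 at -4.96 and -4.09. Each had 4 HL values below its 4 C values. OFP16 read 2.47, 2.19, 2.15 and 2.15 under HL, against 6.44, 6.0, 6.51 and 6.36 under C, and MEE14 read 2.26, 2.54, 1.82 and 1.15 under HL, against 6.86, 6.35, 6.33 and 5.83 under C, so both ended near or below the array median. CP5, one of the strongest signals to fall, averaged 9.12 ± 0.15 under HL, against 10.57 ± 0.12 under C.

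Some called transcripts were neighbours on their chromosomes. Of the falls placed on the RefSeq map, 14.4% stood directly beside another fall, as did 6.13% of all transcripts, and of the rises 9.43% stood beside another rise, against 6.77% of all. These shares are descriptions, and signal shared between overlapping or duplicated neighbours was not tested. The runs of 3 or more numbered 4. One held SCPL11, SCPL13 and SNG1, at -1.46, -3.08 and -2.6, tandem acyltransferase-type genes of which SNG1 makes sinapoylmalate, a UV screen. Calls were spread over the nuclear chromosomes, at 6.18% to 6.97% of the transcripts on each. Of 14 plastid-genome and 92 mitochondrial-genome transcripts, 0 changed over 2-fold, while 3 plastid ones fell and 9 mitochondrial ones rose and 4 fell by the limma test.

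The gnat2 arrays gave a separate set of HL and C plants. Of the 161 transcripts that the naming rule picked and that passed in WT, 160 passed in gnat2 in the same direction, and of all transcripts 24.5% passed in gnat2. HSP17.6II changed by 6.48 in gnat2 and 6.6 in WT, CGA1 by 3.81 and 4.73, EXPA8 by -5.84 and -5.51, and PORB by -3.88 and -4.22. The difference between the responses passed the test for 0 of the 183 transcripts picked by the rule, with an unadjusted p under 0.05 for 31. Over all transcripts it passed for 0.0108%, and the share with an unadjusted p under 0.05 is not given. The rule picked many of the 183 by the size of their WT change, so the 31 are not read as an excess. Among the named ones the difference came nearest for ELIP2, with 5.44 in gnat2 and 3.02 in WT, a difference of 2.42 ± 0.46 (SE), adjusted p = 0.0856.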

How the data were processed

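Affymetrix Arabidopsis gene arrays were hybridized with RNA of WT and gnat2 rosettes, each biological replicate on an array of its own. The authors mapped the probes with a custom chip definition file, corrected the background by RMA, normalized by quantiles, and deposited log2 signals, 1 for each transcript and array. The table holds 24 arrays and 27826 transcripts, with 0 missing values. Precision is limited by the number of arrays, quantile normalization hides any shift in total mRNA, and p-values measure only the spread between these replicates.

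A linear model with 6 means, 1 for each combination of genotype and light, was fitted with limma 3.58.1 under R 4.3.3. All arrays shared the spread of a transcript (18 residual and 6.05 prior degrees of freedom), with two-sided tests and Benjamini-Hochberg adjustment over all transcripts. The study's methods give a one-way ANOVA for the arrays. Simulated data of 27826 transcripts for this comparison recovered 98% of 100 changes of 1.5 log2 units and 100% of 100 changes of 3, with 1 false call, or 15 without the fold limit. The simulation had independent noise and far fewer changes than the 6512 transcripts that passed in the data. Its false calls therefore give no count of false rises and falls here.

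RefSeq (TAIR10.1) supplied names and gene order for 27241 transcripts. No coordinates or sequences were used. The 33 lists kept 534 of 556 loci, those for which the name written down was found among the symbols and synonyms of RefSeq, and were described by counts and medians, with no test of a list. Members and lists were chosen with earlier results of these data known. Named were the 10 largest rises and falls without overlap of the groups, the 5 largest changes of each list, the 6 strongest called signals in each direction, called transcription factors by name, GNAT2 and cell type markers. TT4, DFR, LDOX, CAB1, CAB2, LHCB4.3, Lhca6, PHYB, FER1, LTP3, MYB13, DDB2, SAG29, HBI1, TUB5, SCPL11, SCPL13 and SNG1 were named outside this rule, after their values were seen. Alternatives were a replicate block, a fit of the 8 arrays alone, an unmoderated test, an intensity trend, array weights, a filter on low signals, 3 normalizations, other fold limits and leaving out each array.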

Additional observations from a re-analysis of the deposited data

Results flagged for a closer look

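In a group of 4 arrays, 1 array was held to stand apart when its gap to the nearest other, as a share of the range, exceeded the critical value of the Dixon test for 4 values. Chance flags about 1 in 20 groups, and 16 of 336 groups of named transcripts (4.76%) were flagged. Under HL, GATA17 was 3.13 on array 1, below 3.84 to 3.95 on the others, and OFP16 was 2.47 on array 1, above 2.15 to 2.19 on the others. GR1 was 8.72 on array 3, below 8.82 to 8.83 on the others, and RUP2 was 2.19 on array 1, below 2.86 to 2.99 on the others. HFR1 was 1.88 on array 4, below 3.32 to 3.55 on the others, and DIN9 was 3.85 on array 1, below 4.54 to 4.68 on the others. LTP3 was 5.31 on array 1, below 6.26 to 6.38 on the others, and TT4 was 7.88 on array 2, above 7.5 to 7.55 on the others. CAB1 was 9.47 on array 3, above 9.1 to 9.15 on the others. Under C, HSP17.6II was 1.27 on array 4, below 1.91 to 2.01 on the others, and HSF4 was 2.76 on array 3, below 3.98 to 4.13 on the others. ROF2 (AT5G48570) was 4.61 on array 1, below 5.29 to 5.35 on the others, and LIL3:2 was 5.94 on array 1, below 6.29 to 6.34 on the others. GLK2 was 9.25 on array 1, above 9.06 to 9.09 on the others, and AOC1 was 4.65 on array 4, below 5.48 to 5.62 on the others. FTSH8 was 5.91 on array 1, below 6.5 to 6.55 on the others. In all 16 of these transcripts the HL and C values did not overlap, but all 16 had also passed the limma test. Of the 6512 transcripts that passed, 5212 did not overlap, beside 21.6% of all transcripts. The absence of overlap therefore says little about the flagged arrays.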

How the results depend on the processing

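The counts of calls depended on the fold limit. With a limit of 0.58 log2 units, 4309 transcripts were called, 2256 higher and 2053 lower. With a limit of 1.5 they were 725, with 357 and 368, and with a limit of 2 they were 323, with 138 and 185. All other alternatives stayed within 1.5 times of 1815 calls. Leaving out each of the 8 arrays in turn gave 1791 to 1895 calls, 950 to 993 of them higher and 838 to 916 lower, and 3050 to 3143 rises and 2881 to 3071 falls without the fold limit. The 8 arrays alone gave 1798 calls, all among the 1815, and cyclic loess normalization kept 1767 of them. Without the fold limit the main fit gave 3302 rises and 3210 falls, against 2617 and 2442 with the 8 arrays alone. Array weights gave 2841 and 2711, and the replicate block 3445 and 3338. No scaling moved the median log2 change of all transcripts beyond -0.01.

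Replicate numbers are shared by the groups, but the deviations of same-numbered HL and C arrays correlated only at 0.04 to 0.06, so the numbers were not taken as pairs. HL and C arrays numbered 1 or 2 correlated at 0.0278 to 0.0647, and those numbered 3 or 4 at 0.0448 to 0.0675. Between these sets all values were negative, from -0.0408 to -0.0708. A batch shared by arrays 1 and 2 or by 3 and 4 was not tested. A fit with the replicate number as a block gave 1831 calls, which included all 1815, and under it STZ (adjusted p = 4.64e-07) and DFR (adjusted p = 0.0242) also passed. Of the 159 named transcripts that passed, 156 kept their direction and passed under every alternative, and PDX1.2, RRTF1 and ATML1 did not. STZ, HSP21, RCA, DFR and LDOX passed only under some of them. Low signals limit the sizes of changes. The planned count of promoter motifs was not run, since no promoter sequences were used here.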
